A study of Mus musculus with 3 samples.

Results

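The 45 genes described here mark cells that are copying their DNA or dividing. They were taken by symbol from the feature list of 3 single-cell RNA sequencing libraries, in which all 45 were found among 32285 features, and they fall into 17 S-phase genes and 28 G2/M genes. The libraries came from tibialis anterior muscle of mice of the C57/BL6J strain, collected 4 days after an injection of barium chloride (BaCl2), a salt that kills muscle fibres and is followed by regeneration. Young PBS and old PBS were injured muscles of young and old mice given phosphate-buffered saline, and old rMETRNL was injured muscle of old mice given recombinant meteorin-like, a secreted protein. Injury was thus common to all groups, and uninjured muscle was not analysed here. Each group had 1 library, which the study's methods describe as a pool of several mice, so no test between groups was possible. Every interval given is a 95% interval that covers counting error only, and differences describe these libraries, not the spread between mice.

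A dividing cell passes through 4 ordered phases, G1, S, G2 and M. In S phase the MCM helicase, loaded on replication origins by Cdc6 and Cdt1, opens DNA for copying by polymerases that are held in place by the Pcna clamp, while Rrm1, Rrm2, Tyms and Tk1 supply nucleotides. In G2 and M, Cdk1 with its A- and B-type cyclins drives chromosome condensation and spindle assembly, and Cdc20 and Ube2c then direct the destruction of these regulators so that the cell can leave mitosis. In injured muscle the dividing cells are known to include muscle stem cells (MuSCs) and their myoblast progeny, fibro/adipogenic progenitors (FAPs), endothelial cells and infiltrating leukocytes, and transcripts of the listed genes are low in resting cells.

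The upstream sequences of 4 members are shown because they hold the short letter patterns by which these gene sets are commonly sorted. The CHR element TTTGAA and the CCAAT box are known from promoters of G2/M genes, and E2F sites from promoters of S-phase genes. Each line gives the 250 bases before the RefSeq start site in GRCm38.p6, read 5′ to 3′ on the gene's own strand, and capitals mark matches to the CHR element, the CCAAT box or the E2F patterns TTTCGCGC, TTTGGCGC and TTTCCCGC on either strand. The window of Cdk1, the mitotic kinase, lies at chr10:69352913-69353162 on the minus strand, Cdc20, the activator of mitotic exit, at chr4:118437344-118437593 on the minus strand, and the helicase subunits Mcm5 and Mcm6 at chr8:75109259-75109508 on the plus strand and chr1:128359706-128359955 on the minus strand.
Cdk1: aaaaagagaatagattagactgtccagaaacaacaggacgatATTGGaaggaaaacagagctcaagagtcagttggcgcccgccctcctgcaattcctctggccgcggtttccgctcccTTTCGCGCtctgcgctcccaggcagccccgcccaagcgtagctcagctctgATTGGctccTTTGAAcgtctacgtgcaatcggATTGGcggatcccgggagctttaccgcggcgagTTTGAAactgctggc
Cdc20: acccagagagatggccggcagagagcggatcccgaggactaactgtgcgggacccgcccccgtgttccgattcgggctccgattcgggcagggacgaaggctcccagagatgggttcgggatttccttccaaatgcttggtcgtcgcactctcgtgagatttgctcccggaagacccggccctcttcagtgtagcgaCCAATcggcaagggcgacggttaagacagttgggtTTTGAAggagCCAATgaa
Mcm5: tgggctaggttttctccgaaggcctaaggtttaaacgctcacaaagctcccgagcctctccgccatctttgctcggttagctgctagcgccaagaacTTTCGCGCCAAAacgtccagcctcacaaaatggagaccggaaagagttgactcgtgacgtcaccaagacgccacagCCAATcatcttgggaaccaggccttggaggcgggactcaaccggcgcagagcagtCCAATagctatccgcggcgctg
Mcm6: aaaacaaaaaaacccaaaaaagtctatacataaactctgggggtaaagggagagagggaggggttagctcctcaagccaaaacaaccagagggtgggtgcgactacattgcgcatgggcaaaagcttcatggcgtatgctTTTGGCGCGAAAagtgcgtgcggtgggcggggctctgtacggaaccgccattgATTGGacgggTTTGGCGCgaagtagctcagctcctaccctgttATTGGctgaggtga
In Mcm5 and Mcm6 matches to TTTCGCGC and TTTGGCGC on opposite strands overlap. For the counts that follow, a promoter ran from 250 bases before to 50 bases after the start, longer than the lines shown. Of the 45 members, 39 had a promoter in the table used, 14 of them S-phase and 25 G2/M. Aurkb, Mcm4, Tpx2, Ccne2, Ccna2 and Gins2 had none. TTTGAA was found in 20 of the 25 G2/M promoters (80.0%), in 1 of the 14 S-phase promoters (7.14%) and in 20.2% of the promoters of all 27025 genes. Any E2F pattern was found in 7 of the 14 S-phase promoters (50%), in 1 of the 25 G2/M promoters (4.00%), that of Cdk1, and in 2.12% of all. CCAAT was found in 84.0% of the G2/M, 64.3% of the S-phase and 41.1% of all promoters. A match describes letters only, and says nothing of binding in these cells.

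After filtering, 10293 cells of young PBS, 9946 of old PBS and 11353 of old rMETRNL remained, with medians of 15092, 13676 and 14586 UMIs (unique molecular identifiers, each counting 1 captured transcript) per cell. Cells were grouped without using the cycle genes and named from marker genes, and each name ends in "-like" because it rests on transcripts alone. Each named class had 10 to 15 markers, of which 0 were at 0 UMIs in any library and at most 1 was seen in under 10% of the cells. Macrophage/monocyte-like cells were the most numerous, at 6239, 6065 and 6824 in young PBS, old PBS and old rMETRNL. Libraries shared 80 barcodes between young PBS and old PBS, 76 between old PBS and old rMETRNL and 58 between young PBS and old rMETRNL. Levels are in CPM, the UMIs of a gene per 1000000 UMIs of a class in a library. The comparisons are old PBS over young PBS and old rMETRNL over old PBS, and since they share the old PBS library they are not independent of each other. A gene was called higher or lower when its level was at least 25% higher or 20% lower and the interval of the ratio left out 1, among genes with at least 50 UMIs in the class over the 3 libraries.

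The summed level of the 28 G2/M genes was highest in MuSC/myoblast-like cells, at 3195, 2755 and 3403 CPM in young PBS, old PBS and old rMETRNL. It was lowest in mature fibre-like cells, named from transcripts of grown muscle fibres, at 100, 116 and 100 CPM. These barcodes were shallow, with medians of 3012.5, 2107 and 2246.5 UMIs, and held medians of 0.0867%, 0.1605% and 0.184% mitochondrial UMIs. Whether they were whole fibres, fragments or free fibre RNA was not tested. MuSC/myoblast-like cells held the highest level of 26, 22 and 27 of the 28 G2/M genes among the 8 larger classes, those of 100 or more cells in every library. For the S-phase genes the leading place was divided. In young PBS, MuSC/myoblast-like cells were highest for 10 and T/NK-like cells for 7 of the 17 genes, and the S-phase sums of those classes were 1367 and 1445 CPM. The more numerous macrophage/monocyte-like cells held 42.6%, 62.3% and 49.7% of all UMIs of the 45 genes in young PBS, old PBS and old rMETRNL.

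**Figure D1:**
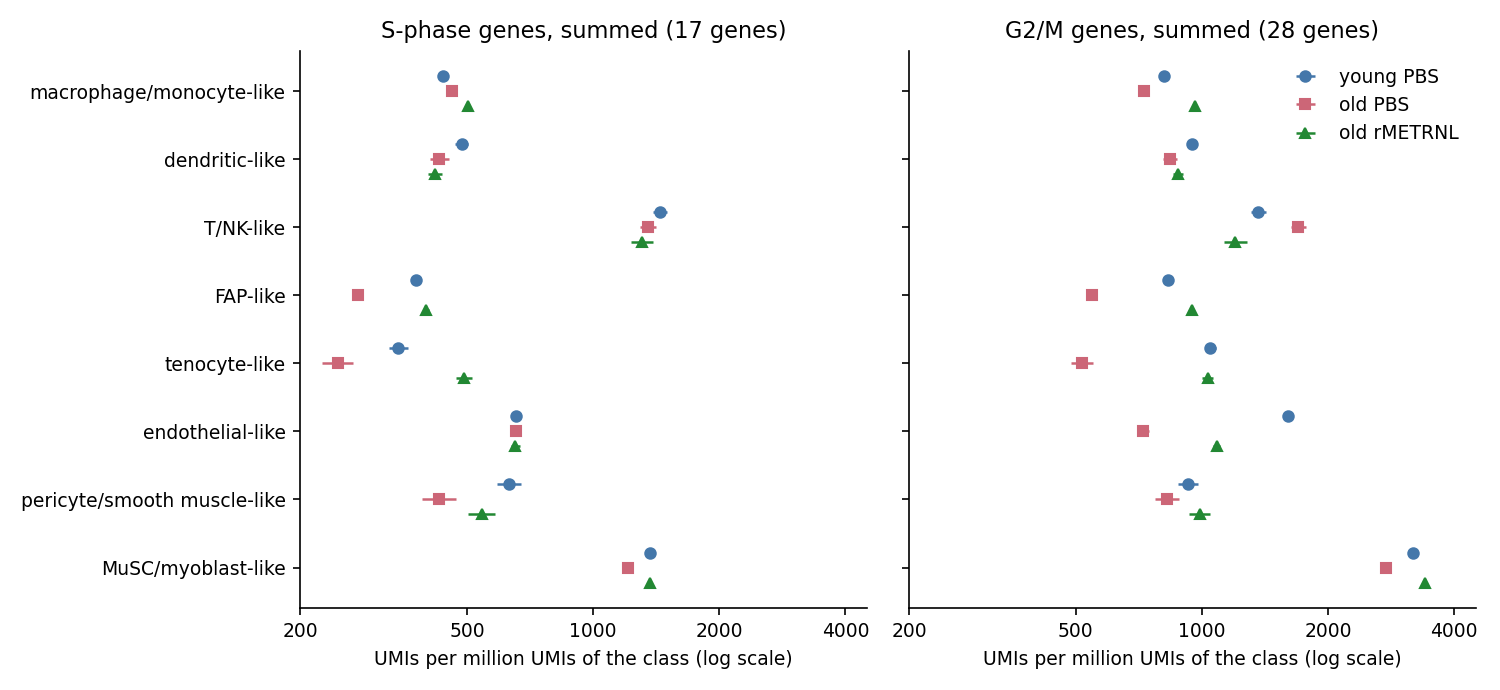
Summed level of the 17 S-phase genes (left) and the 28 G2/M genes (right), in CPM of each class on a log axis, for young PBS (circles), old PBS (squares) and old rMETRNL (triangles). Bars are 95% Poisson intervals, for counting error only. G2/M levels of FAP-like, tenocyte-like and endothelial-like cells were lowest in old PBS, whereas the S-phase levels of endothelial-like cells lay on top of each other at 653.3, 653.4 and 652.1 CPM.

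The G2/M sum was lower in old PBS than in young PBS in 7 of these 8 classes and higher in 1, T/NK-like cells. In old rMETRNL it was higher than in old PBS in 6 classes, lower in T/NK-like cells, and in dendritic-like cells its interval held 1. The S-phase sum was lower in old PBS in 6 classes, higher in the pooled macrophage/monocyte-like cells, though lower in most of their clusters, and the same within counting error in endothelial-like cells, and in old rMETRNL it was above old PBS in 5 classes with an interval that held 1 in the other 3. Outside FAP-like cells the ratio of old PBS to young PBS for G2/M ran from 0.451 in endothelial-like to 1.248 in T/NK-like cells. The ratio of old rMETRNL to old PBS ran from 0.707 in T/NK-like to 1.99 in tenocyte-like cells. Counting intervals do not cover which cells were captured, and a few cells held many of these UMIs. By the share of cells with G2/M transcripts, given below, old PBS over young PBS had an interval without 1 only in FAP-like (0.602) and endothelial-like cells (0.502). In dendritic-like cells that ratio was 1.16. For old rMETRNL over old PBS the interval lay above 1 in macrophage/monocyte-like, FAP-like, tenocyte-like and endothelial-like cells. FAP-like cells, for reference, had G2/M ratios of 0.659 (0.647 to 0.671) and 1.74 (1.71 to 1.77), with 26 of 28 genes called lower in the former and 28 of 28 called higher in the latter, and none the other way, where 15.1% and 10.1% of all genes tested were called in those directions and 13.1% and 8.53% in the opposite ones. With called doublets kept, the 26 became 13. The make-up of the class differed, since the cluster led by Pi16 made up 246, 368 and 438 of its 1712, 1388 and 1774 cells. Within it the G2/M ratios were 0.341 (0.322 to 0.362) and 2.69 (2.55 to 2.85), and within the other FAP-like cluster 0.723 (0.710 to 0.737) and 1.65 (1.62 to 1.68), so both clusters had their lowest level in old PBS.

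**Figure D2:**
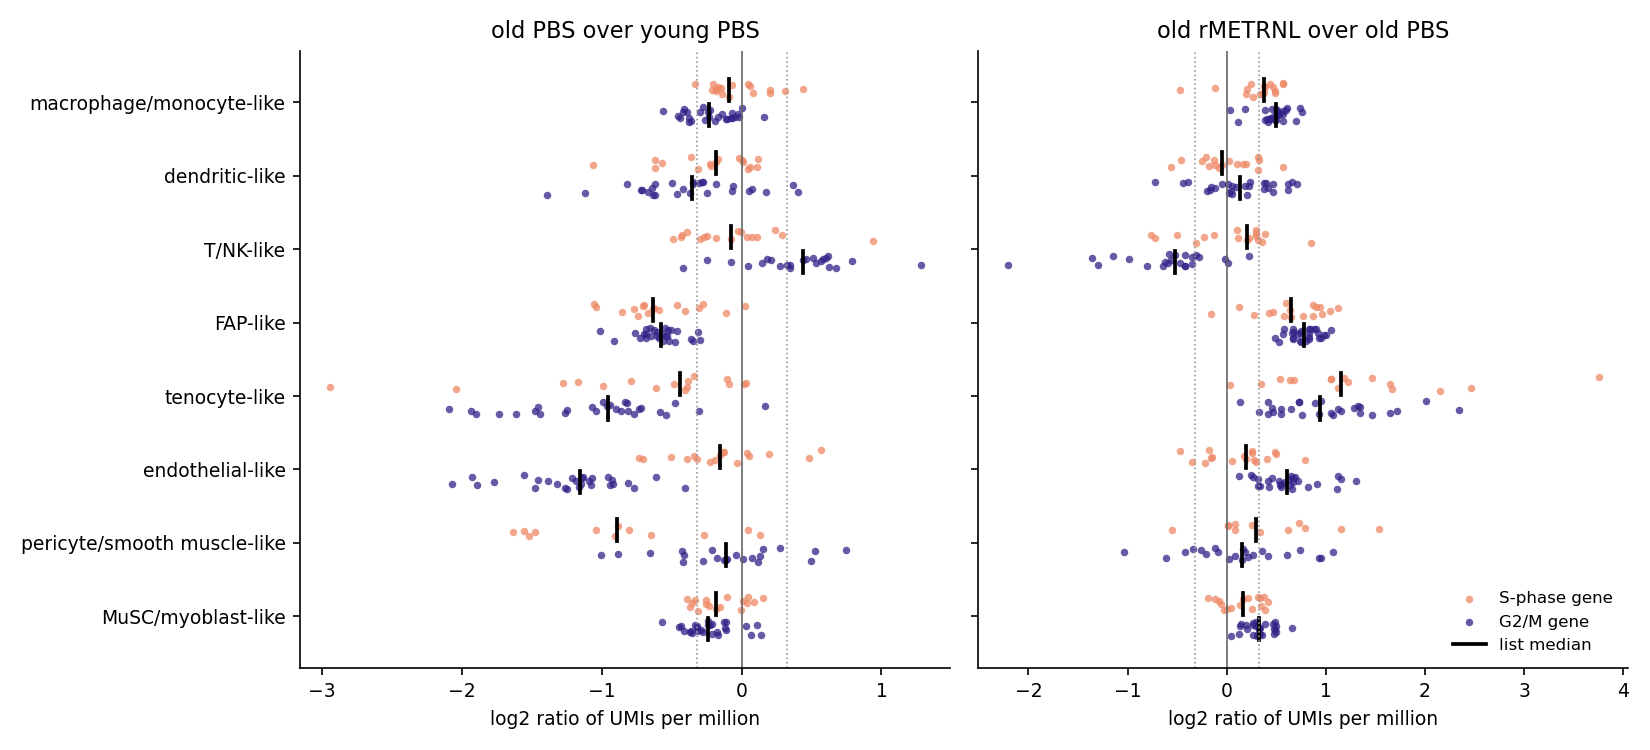
Log2 ratio of each member between libraries by cell class, for old PBS over young PBS (left) and old rMETRNL over old PBS (right). Each point is 1 gene, black bars are list medians and dotted lines mark the threshold of a call. In endothelial-like cells all 28 G2/M genes sat below 0 in the left panel while S-phase genes lay on both sides of it.

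In macrophage/monocyte-like cells most G2/M genes were called higher in old rMETRNL than in old PBS, and a minority were called lower in old PBS than in young PBS. Their sum was 811.9, 725.3 and 961.4 CPM in young PBS, old PBS and old rMETRNL, so that old PBS was 0.893 times young PBS (0.884 to 0.902) and old rMETRNL 1.33 times old PBS (1.31 to 1.34). Old rMETRNL was the highest library and stood at 1.18 times young PBS. In old rMETRNL against old PBS, 25 of 28 G2/M genes were called higher and 0 lower, where 12.7% and 7.70% of all 14370 genes tested were called higher and lower. The list median was 0.50 on the log2 scale against 0.05 over all genes. In old PBS against young PBS, 9 of 28 were called lower and 0 higher, beside 12.4% and 12.5% of all genes, with medians of -0.23 and -0.00. The count of 9 became 1 when each cell was named singly and 5 under a stricter cell filter. Of 18 stress genes of tissue dissociation, 6 were called lower and 1 higher in old PBS than in young PBS and 7 higher and 1 lower in old rMETRNL than in old PBS, and their part was not tested.

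By role, all 4 cyclins and kinase (Ccna2, Ccnb1, Ccnb2 and Cdk1), all 10 spindle and cytokinesis genes and all 3 genes of mitotic exit were called higher in old rMETRNL than in old PBS, as were 8 of 11 genes of chromosomes, centromeres and the spindle checkpoint. Cdk1 measured 31.3, 26.5 and 37.7 CPM in young PBS, old PBS and old rMETRNL, and old rMETRNL was 1.42 times old PBS (1.35 to 1.49). Ccnb1, the cyclin that carries Cdk1 into mitosis, measured 16.8, 13.9 and 20.6 CPM and Ccna2, the cyclin of S phase and G2, 20.4, 16.6 and 23.0 CPM. In these 3 genes old PBS was the lowest library and old rMETRNL the highest, with ratios of 1.42, 1.48 (1.38 to 1.58) and 1.39 (1.30 to 1.48). Their old PBS over young PBS ratios of 0.847, 0.827 and 0.815 did not reach the threshold of a call. Top2a, the topoisomerase that untangles chromosomes, was at 74.4, 70.4 and 94.2 CPM, with a ratio of 1.34 (1.30 to 1.38) for old rMETRNL over old PBS.

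Cdc20 was the member for which old PBS stood farthest below young PBS in this class, at 12.6, 8.51 and 13.8 CPM, a ratio of 0.678 (0.620 to 0.740), and old rMETRNL was 1.62 times old PBS (1.49 to 1.77). Ube2c, the ubiquitin-conjugating enzyme that works with it, measured 60.3, 44.0 and 65.1 CPM, and its ratios were 0.729 (0.701 to 0.758) and 1.48 (1.43 to 1.54). Hmmr, a spindle protein, had the largest old rMETRNL over old PBS ratio of the class, 1.69 (1.59 to 1.8), from 20.5, 15.9 and 26.9 CPM. The 3 G2/M genes not called were the proliferation marker Mki67, the centromeric histone Cenpa and the checkpoint kinase Bub1b. Mki67 measured 87.4, 97.5 and 106 CPM, ratios of 1.12 (1.08 to 1.15) and 1.08 (1.05 to 1.11), so old PBS was not its lowest library. Cenpa differed little, at 83.0, 83.1 and 84.8 CPM.

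S-phase genes of macrophage/monocyte-like cells did not move as a block. Their sum was 439.4, 460.1 and 502.4 CPM, ratios of 1.05 (1.03 to 1.06) and 1.09 (1.08 to 1.11). The former sum went against most of its clusters, since in 5 of 7 old PBS was lower than young PBS, each with an interval below 1 and down to 0.636, and 1 had an interval above 1. In old rMETRNL 5 clusters were above old PBS and 2 below, all with intervals that left out 1. Between old rMETRNL and old PBS 11 of 17 were called higher and 1 lower (median 0.37), beside 12.7% and 7.70% of all genes. In old PBS against young PBS 1 was called higher and 1 lower (median -0.09), a smaller share than the 12.5% and 12.4% of all genes. Mcm5 measured 18.9, 16.6 and 23.2 CPM, with an old rMETRNL over old PBS ratio of 1.40 (1.31 to 1.49). Mcm6, a subunit of the same ring, was called in both comparisons, at 32.5, 25.7 and 36.0 CPM, ratios of 0.793 (0.753 to 0.836) and 1.40 (1.33 to 1.47). Cdt1, the licensing factor that loads this ring, ran the other way, at 38.8, 52.6 and 37.9 CPM. Old PBS was its highest library, with ratios of 1.36 (1.30 to 1.41) and 0.720 (0.691 to 0.750), and it was the 1 gene called higher in the former comparison and the 1 called lower in the latter. Cdt1 was seen in 43.0% of these cells in old PBS against 34.3% in young PBS and 34.9% in old rMETRNL.

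Pcna made up 34.7%, 38.0% and 32.1% of the class's S-phase UMIs, so it weighed on the sum. It measured 152, 175 and 161 CPM, ratios of 1.15 (1.12 to 1.17) and 0.921 (0.902 to 0.941), neither of them called. Without it the S-phase sum of old PBS was 0.993 times young PBS (0.977 to 1.01) and old rMETRNL was 1.2 times old PBS (1.18 to 1.22). Rrm2, the regulated subunit of ribonucleotide reductase, measured 14.8, 17 and 20.4 CPM, ratios of 1.15 (1.07 to 1.23) and 1.2 (1.13 to 1.28). Ccne1, the cyclin of S-phase entry, measured 4.45, 5.51 and 6.36 CPM, ratios of 1.24 (1.09 to 1.41) and 1.15 (1.03 to 1.29). Both were lowest in young PBS and highest in old rMETRNL, and neither was called in these comparisons.

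**Figure D3:**
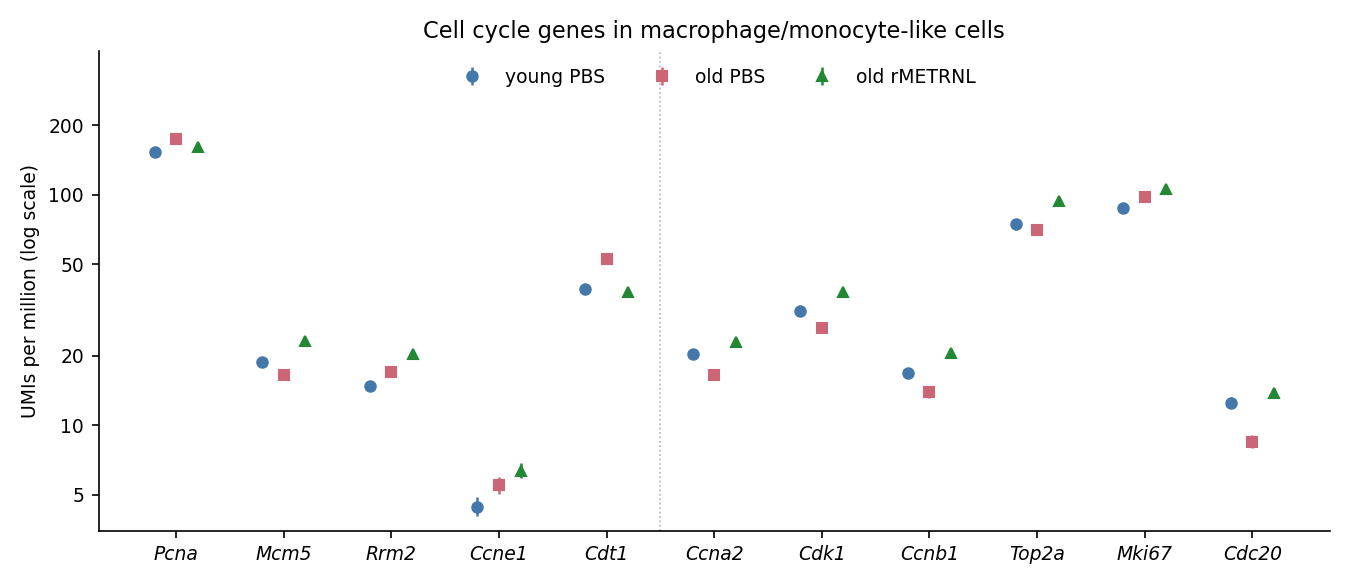
Level of 11 members in macrophage/monocyte-like cells, in CPM on a log axis, with S-phase genes left and G2/M genes right of the dotted line. Bars are 95% Poisson intervals. Cdk1, Ccnb1, Ccna2, Cdc20 and Mcm5 dip in old PBS, whereas Cdt1 and Pcna peak there and Mki67, Rrm2 and Ccne1 increase from young PBS to old rMETRNL.

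The macrophage/monocyte-like cells were not alike. Of 7 clusters, 6 had a higher G2/M sum in old rMETRNL than in old PBS and 6 had a lower sum in old PBS than in young PBS, 5 of them with intervals below 1. The exception in both comparisons was the cluster led by the interferon-induced genes Ifit2 and Slfn1, whose G2/M level was 468, 802 and 500 CPM in 1846, 530 and 1309 cells. Old PBS was 1.72 times young PBS there and old rMETRNL 0.623 times old PBS. The cluster led by Trem2, a lipid receptor, and Ctsd, a lysosomal protease, measured 1247, 628 and 996 CPM. The cluster led by Cbr2, Ccl8 and Cd163, genes of resident macrophages, measured 1222, 956 and 1507 CPM. The monocyte cluster led by F10, Ly6c2 and Chil3 measured 602, 409 and 700 CPM, again lowest in old PBS.

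To compare cells rather than sums, each cell was thinned to 2000 UMIs and counted when at least 2 of them fell on a list. Cells with fewer UMIs were left out, which took 117, 220 and 183 macrophage/monocyte-like cells in young PBS, old PBS and old rMETRNL, but 25, 145 and 125 endothelial-like, 11, 37 and 64 tenocyte-like and 12, 205 and 53 mature fibre-like cells. By this count 13.1% (12.3 to 14.0), 12.0% (11.2 to 12.9) and 14.6% (13.7 to 15.4) of macrophage/monocyte-like cells of young PBS, old PBS and old rMETRNL held G2/M transcripts. Old PBS over young PBS gave a share ratio of 0.913 (0.824 to 1.01), within counting error, and old rMETRNL over old PBS one of 1.21 (1.1 to 1.34). The latter depended on depth. It was 1.36 at 1000 UMIs, 1.04 at 4000 and 0.995 in unthinned cells, where the shares were 56.9%, 59.7% and 59.4%. Free RNA gives cells transcripts they do not make. The lowest share of the 8 classes on average over the libraries, though not in old rMETRNL, was that of tenocyte-like cells, a choice made after the values were seen. It was 9.09% (17 of 187 cells), 4.35% (5 of 115) and 11.9% (26 of 218). In young PBS 5 tenocyte-like cells held 2968 of the 4472 G2/M UMIs of their class, so this share includes cells rich in G2/M transcripts and does not measure free RNA. Grown muscle fibres are known not to divide, and the shallow mature fibre-like cells counted 0 of 22, 4 of 228 (1.75%) and 3 of 75 (4.00%). The 0 of 22, at a floor of 3 cells, allows a share of up to 13.6%.

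**Figure D4:**
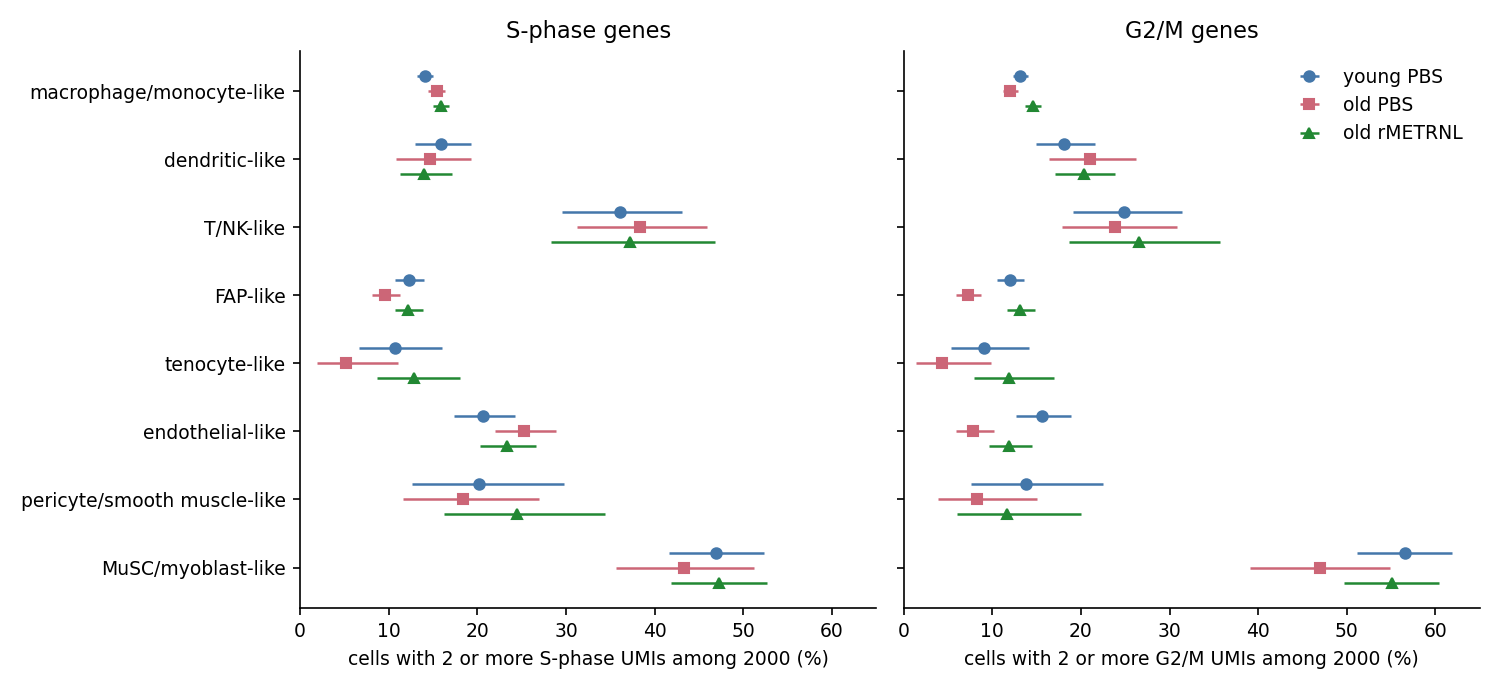
Share of cells with at least 2 UMIs of the S-phase list (left) or the G2/M list (right) after thinning to 2000 UMIs per cell, in percent, by class and library. Bars are 95% Clopper-Pearson intervals. For G2/M, the intervals of young PBS and old PBS separate in endothelial-like cells, at 15.6% and 7.82%, and in FAP-like cells, at 12.0% and 7.21% (13.2% in old rMETRNL), while the intervals of the T/NK-like, dendritic-like and pericyte/smooth muscle-like cells overlap.

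Among the 8 larger classes, endothelial-like cells showed the widest gap between S-phase and G2/M genes in old PBS over young PBS. Their G2/M sum was 1608, 725.1 and 1085 CPM in young PBS, old PBS and old rMETRNL, ratios of 0.451 (0.436 to 0.467) and 1.5 (1.44 to 1.55). Old rMETRNL lay between the others, at 0.675 (0.658 to 0.692) of young PBS. The S-phase sum was 653.3, 653.4 and 652.1 CPM, ratios of 1.0 (0.960 to 1.04) and 0.998 (0.959 to 1.04). By sub-cluster it was not level. Of 8, the S-phase sum was higher in old PBS than in young PBS in 6 and lower in 2, with ratios from 0.826 to 1.57. Of their intervals 4 lay above 1 and 0 below. Old rMETRNL was above old PBS in 4 and below it in 4, from 0.454 to 1.55. Old PBS had all 28 G2/M genes called lower than young PBS, where 17.1% of the 11376 genes tested were called lower and 14.1% higher, with a list median of -1.15 against -0.04 over all genes. Among the S-phase genes 5 of 17 were called lower and 2 higher (median -0.15). Between old PBS and old rMETRNL, 21 of 28 G2/M genes were called higher in the latter and 0 lower (13.4% and 10.4% of all genes), with a median of 0.61, and 4 of 17 S-phase genes higher and 2 lower (median 0.19).

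The equal S-phase sums held opposite parts. Pcna measured 163, 241 and 174 CPM in endothelial-like cells. Old PBS was its highest library, with ratios of 1.48 (1.38 to 1.59) and 0.720 (0.671 to 0.773), and it made up 24.9%, 36.9% and 26.6% of the S-phase UMIs. Without Pcna the S-phase sum of old PBS was 0.841 times young PBS (0.8 to 0.884) and old rMETRNL was 1.16 times old PBS (1.1 to 1.22). Ccne2, one of the E-type cyclins of S-phase entry, was also called higher in old PBS, at 9.61, 13.4 and 12.1 CPM, a ratio of 1.40 (1.02 to 1.92). Tk1, which salvages thymidine, was called lower there, at 38.6, 23.7 and 28.3 CPM, a ratio of 0.614 (0.5 to 0.749). Rrm2 measured 37.8, 39.2 and 30.7 CPM and was called lower in old rMETRNL than in old PBS, a ratio of 0.783 (0.658 to 0.934).

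Among the G2/M genes, Cenpe, the kinesin that holds chromosomes on the spindle, stood lowest in old PBS relative to young PBS, at 81.7, 19.4 and 43.3 CPM, ratios of 0.238 (0.193 to 0.290) and 2.23 (1.81 to 2.77). Plk1, a kinase of mitotic entry and exit, had the largest ratio of old rMETRNL to old PBS, 2.50 (1.71 to 3.75), from 22.2, 5.79 and 14.5 CPM. Ube2c measured 147, 39.5 and 86.2 CPM and Cdc20 46.7, 15.8 and 30 CPM. In all 4 genes young PBS was the highest library, old PBS the lowest and old rMETRNL in between, with no overlap of their counting intervals. Mki67 differed less, at 111, 83.9 and 106 CPM, ratios of 0.756 (0.677 to 0.843) and 1.26 (1.13 to 1.40).

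The share of endothelial-like cells with G2/M transcripts after thinning was 15.6% (86 of 552; 12.7 to 18.9), 7.82% (51 of 652; 5.88 to 10.2) and 11.9% (84 of 707; 9.59 to 14.5). Its ratios were 0.502 (0.348 to 0.718) and 1.52 (1.06 to 2.20), near those of the sums. Cells with S-phase but not G2/M transcripts made up 12.7%, 21.2% and 16.7%, cells with both 7.97%, 4.14% and 6.65%, and cells with either 28.3%, 29.0% and 28.6%. At this depth the share that passed for either list was level, and old PBS held more of it as S-phase only. Pcna, at 36.9% of the S-phase UMIs in old PBS against 24.9% in young PBS, counts toward these shares, and its part in them was not tested. In unthinned cells, whose depth differed, the G2/M shares were 37.8%, 18.1% and 29.1% and the shares for either list 73.0%, 57.7% and 67.8%, lowest in old PBS.

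Depth moved with this result. The median endothelial-like cell held 11624, 4081 and 8208.5 UMIs in young PBS, old PBS and old rMETRNL, and 12 of 18 genes of the tissue-dissociation stress response, led by Egr1 and Socs3, were called higher in old PBS than in young PBS. A sub-cluster of 54, 270 and 177 cells was shallow and led by Nabp1, Socs1, Egr3 and Hspa1b. With it left out, a choice made after seeing the data, the G2/M ratios were 0.498 (0.481 to 0.516) and 1.40 (1.35 to 1.45). G2/M was lower in old PBS than in young PBS in 7 of 8 endothelial sub-clusters, 6 with intervals below 1, whereas old rMETRNL was above old PBS in 4 and below it in 4. Macrophage markers in this class summed to 1524, 2796 and 2608 CPM. The part of depth, stress genes and macrophage RNA beyond these values was not tested.

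In MuSC/myoblast-like cells, 364, 174 and 358 in number, the G2/M sum differed less between libraries than in endothelial-like cells, while the S-phase sum, level there, was lowest in old PBS. The G2/M sum gave ratios of 0.862 (0.846 to 0.880) and 1.24 (1.21 to 1.26), and the S-phase sum, at 1367, 1213 and 1364 CPM, ratios of 0.887 (0.861 to 0.914) and 1.12 (1.09 to 1.16). In old PBS against young PBS 8 of 28 G2/M and 4 of 17 S-phase genes were called lower and none of either higher, beside 6.37% and 9.06% of all 11307 genes tested, with list medians of -0.24 and -0.19 against 0.01. Old rMETRNL had 14 G2/M and 5 S-phase genes called higher than old PBS and none lower (6.07% and 7.73% of all genes), with medians of 0.32 and 0.16 against -0.01. The 8 G2/M genes called lower became 0 when cycle genes were left in the clustering and 13 under a stricter cell filter, which left 116, 45 and 159 cells. The 14 called higher became 5 by the mean of per-cell CPM, and the 5 S-phase genes became 0 under the stricter filter. Sub-clusters split against the class sum: of 7, G2/M was higher in old PBS than in young PBS in 4 and lower in 3 (0.297 to 1.24), and old rMETRNL was below old PBS in 4, each with an interval below 1, and above it in 3, in sub-clusters of as few as 8 cells a library.

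Aurka, the kinase that matures spindle poles, was the member with the lowest ratio of old PBS to young PBS in MuSC/myoblast-like cells, at 36.3, 24.4 and 34.3 CPM, ratios of 0.672 (0.544 to 0.826) and 1.40 (1.14 to 1.74). Ccnb1 measured 98.4, 72.6 and 102 CPM, ratios of 0.738 (0.653 to 0.832) and 1.40 (1.24 to 1.58). Cep55, which acts at the final separation of daughter cells, had the highest ratio of old rMETRNL to old PBS, 1.59 (1.28 to 1.98), from 28.2, 21.7 and 34.5 CPM. For these genes old PBS was the lowest library. Young PBS and old rMETRNL lay close in Aurka and Ccnb1 but not in Cep55. Tk1, at 65.4, 72.6 and 66.7 CPM, Cdt1, at 41.0, 41.2 and 36.3 CPM, and Mki67, at 210, 232 and 239 CPM, were not called in either comparison. The thinned G2/M share was 56.5% (51.1 to 61.8), 47.0% (39.1 to 54.9) and 55.1% (49.7 to 60.4). Its ratios of 0.831 (0.630 to 1.09) and 1.17 (0.896 to 1.55) held 1, so a difference in the share of cells was not detectable at this number of cells.

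Tenocyte-like cells, the tendon fibroblasts of the muscle, differed by more than MuSC/myoblast-like cells but in few cells. Their G2/M sum was 1047, 518 and 1031 CPM, ratios of 0.495 (0.462 to 0.529) and 1.99 (1.86 to 2.13), and their S-phase sum 342.9, 245.9 and 492.5 CPM, ratios of 0.717 (0.647 to 0.793) and 2.0 (1.82 to 2.21). Old PBS had 23 of 28 G2/M and 4 of 16 S-phase genes called lower than young PBS (8.35% of 9817 genes) and none higher (8.67%), with medians of -0.95 and -0.44 against -0.01. By the mean of per-cell CPM the S-phase median was 0.035, and of 8 sub-clusters the G2/M sum was higher in old PBS in 5 and lower in 3, with ratios from 0.0702 to 14.3 in sub-clusters of as few as 7 cells a library. Old rMETRNL was above old PBS in 4 of them and below it in 4, with ratios from 0.344 to 5.33. A sub-cluster of 66 cells had cycle genes such as Kif11 among its leading genes, so this split was made partly by cycle genes. Old rMETRNL had 21 and 13 called higher than old PBS (6.71%) and none lower (7.49%), with medians of 0.94 and 1.15 against -0.02. Rrm2 measured 32.3, 7.62 and 43.4 CPM and Cdk1 51.8, 13.3 and 54.5 CPM, both lowest in old PBS. Ccne2 gave the widest ratios, from 23, 1 and 41 UMIs (5.39, 0.477 and 9.52 CPM), with 0.0885 (0.00215 to 0.545) and 20 (3.39 to 808). Bub1, a checkpoint kinase, at 7.73, 8.58 and 10.9 CPM, and Cdt1, at 26.7, 21.0 and 21.6 CPM, were not called. In old PBS 5 of 152 cells held 88.2% of the G2/M UMIs, against 66.4% in the top 5 of 198 young PBS cells and 51.7% in the top 5 of 282 old rMETRNL cells. The thinned shares gave ratios of 0.478 (0.138 to 1.35) and 2.74 (1.04 to 9.15), and the median cell held 19873.5, 10851.5 and 13505 UMIs.

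T/NK-like cells, 210, 181 and 121 in number, went against the other 7 larger classes in the G2/M sum of old PBS over young PBS. Their sum was 1361, 1698 and 1201 CPM, ratios of 1.248 (1.178 to 1.321) and 0.707 (0.656 to 0.761), with old PBS the highest library. The class held 105, 37 and 38 NK-like and 94, 129 and 67 T-like cells, so its make-up differed between libraries. A further sub-cluster of 42 cells, led by Cd163l1 and Tcrg-C1, was given neither name. Within NK-like cells the ratios were 1.52 (1.41 to 1.63) and 0.432 (0.386 to 0.483), and within T-like cells 1.63 (1.47 to 1.82) and 0.912 (0.818 to 1.02), the last of which held 1. Of 23 G2/M genes tested, 11 were called higher and 0 lower in old PBS than in young PBS (9.64% and 8.04% of 6667 genes; medians 0.44 and 0.02), and 10 lower and 0 higher in old rMETRNL than in old PBS (5.49% and 5.02%; medians -0.52 and -0.00). Hmmr marked both ends, at 10.1, 25 and 4.86 CPM from 17, 37 and 4 UMIs, ratios of 2.47 (1.36 to 4.68) and 0.194 (0.0504 to 0.541). Mki67 measured 222, 282 and 191 CPM, ratios of 1.27 (1.1 to 1.47) and 0.676 (0.559 to 0.814). The 5 cells with most G2/M UMIs held 29.9%, 31.7% and 39.1% of them. The share of cells did not follow this order of the sums, at 24.9% (51 of 205), 23.9% (43 of 180) and 26.5% (30 of 113), ratios of 0.960 (0.625 to 1.47) and 1.11 (0.673 to 1.81), so the order holds for the summed UMIs and was not seen in the share of cells. With a minimum of 200 UMIs a gene, 5 were called higher in the former comparison and 4 lower in the latter.

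S-phase genes of T/NK-like cells were called in both directions, in few genes. The sum was 1445, 1353 and 1308 CPM, ratios of 0.936 (0.882 to 0.994) and 0.966 (0.896 to 1.04), with 1 of 17 genes called higher and 3 lower in old PBS than in young PBS (9.64% and 8.04% of all genes), and 2 higher and 3 lower in old rMETRNL than in old PBS (5.02% and 5.49%). The NK-like and T-like subsets went opposite ways in the S-phase sum, with old PBS over young PBS ratios of 0.861 in 1 and 1.24 in the other. For old rMETRNL over old PBS the lower and higher ratios were 0.828 and 1.13. Each interval left out 1. Mcm2 measured 68.4, 48.6 and 61.9 CPM, lowest in old PBS, a ratio of 0.710 (0.522 to 0.962) to young PBS. Cdt1 was the gene called higher, at 22, 42.5 and 34.0 CPM, a ratio of 1.93 (1.27 to 2.98). Pcna at 307, 323 and 227 CPM, Rrm2 at 88.7, 95.9 and 55.9 CPM and Tyms, the thymidylate synthase, at 74.4, 72.9 and 43.7 CPM were called lower in old rMETRNL than in old PBS, with ratios of 0.704 (0.591 to 0.835), 0.583 (0.408 to 0.818) and 0.600 (0.399 to 0.882). Ccne1, at 15.5, 18.9 and 34.0 CPM, had the largest ratio in that comparison, 1.8 (1.03 to 3.15). Old rMETRNL was thus the lowest library for Pcna, Rrm2 and Tyms and the highest for this cyclin. Stress genes were called lower in old PBS than in young PBS for 10 of 18 and higher in old rMETRNL than in old PBS for 10 of 18, and their part was not tested.

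Dendritic-like cells (551, 290 and 570) had G2/M sums of 944.3, 839.5 and 876.2 CPM, ratios of 0.889 (0.850 to 0.930) and 1.04 (0.998 to 1.09). In old PBS against young PBS 10 of 28 G2/M and 3 of 17 S-phase genes were called lower (12.9% of 9478 genes) and 1 and 0 higher (9.66%). In old rMETRNL against old PBS 5 and 0 were called higher (10.6%) and 1 and 1 lower (6.59%). Mki67 went against its list in both comparisons, at 116, 154 and 114 CPM, ratios of 1.32 (1.18 to 1.48) and 0.736 (0.657 to 0.826), so old PBS was its highest library. Cdc20 had the lowest ratio of old PBS to young PBS, 0.374 (0.222 to 0.605), at 16.1, 6.04 and 7.17 CPM, and stayed low in old rMETRNL. Cenpf, a kinetochore protein, measured 30.8, 18.7 and 30.6 CPM, ratios of 0.607 (0.451 to 0.810) and 1.64 (1.23 to 2.21), lowest in old PBS. Aurka, at 6.49, 8.34 and 5.05 CPM, had the lowest ratio of old rMETRNL to old PBS, 0.605 (0.353 to 1.04), and was not called. Thinned G2/M shares of 18.1%, 21.0% and 20.3% did not differ beyond counting error. A stricter cell filter gave 20 G2/M genes called lower in old PBS than in young PBS and 17 called higher in old rMETRNL than in old PBS. Under it the class held 624, 410 and 679 cells, more than before, so its make-up changed too. In the main setting 9 of 18 stress genes were called lower in old PBS than in young PBS and 10 higher in old rMETRNL than in old PBS.

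Pericyte/smooth muscle-like cells (105, 137 and 118), which wrap small vessels, had lower sums of both lists in old PBS than in young PBS, further apart for S-phase than for G2/M genes. S-phase sums of 630.7, 428.5 and 541.7 CPM gave ratios of 0.679 (0.606 to 0.761) and 1.26 (1.12 to 1.43), and G2/M sums of 926.3, 826.7 and 986.9 CPM ratios of 0.892 (0.819 to 0.972) and 1.19 (1.09 to 1.30). Of 12 S-phase genes tested 8 were called lower in old PBS than in young PBS and of 22 G2/M genes 3 (14.6% of 7632 genes), with 0 and 1 higher (12.5%). In old rMETRNL against old PBS 4 and 5 were called higher (7.78%) and 0 and 1 lower (5.21%). Cdt1 measured 18.8, 5.69 and 17.4 CPM from 28, 6 and 22 UMIs, ratios of 0.302 (0.102 to 0.744) and 3.06 (1.2 to 9.23), and Tk1 48.4, 16.1 and 36.4 CPM. Both dipped in old PBS. Cenpf was higher in old PBS than in young PBS, at 39.0, 65.4 and 61.8 CPM, a ratio of 1.68 (1.17 to 2.42), and Cdc20, at 32.9, 47.4 and 23.0 CPM, was lower in old rMETRNL than in old PBS, a ratio of 0.485 (0.296 to 0.781). Thinned shares did not show this order, with old PBS over young PBS ratios of 0.908 (0.460 to 1.8) for S-phase and 0.597 (0.225 to 1.51) for G2/M, and both intervals held 1. Here 5 cells held 59.8%, 86.6% and 76.2% of the G2/M UMIs, the median cell held 9300, 5772 and 7329 UMIs, and 12 of 18 stress genes were called higher in old PBS than in young PBS.

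The smaller classes gave values only. Myocyte-like cells, in 82, 22 and 47 cells, had G2/M sums of 701.9, 448.6 and 1019 CPM, of which 5 cells held 58.0%, 86.1% and 82.9%. Spc25, a kinetochore protein, had 30, 0 and 28 UMIs in them, so that, against a floor of 3 UMIs in the old PBS library, young PBS was at least 2.77-fold higher and old rMETRNL at least 4.85-fold higher. Schwann/glial-like cells, in 26, 68 and 50 cells, had G2/M sums of 2478, 1224 and 748 CPM, of which 5 cells held 98.0%, 94.6% and 92.0%, so these levels describe a handful of cells. In mature fibre-like cells, in 34, 433 and 128 cells, Pcna was the 1 member with enough UMIs to be tested, with 1, 60 and 14 UMIs (7.15, 40.1 and 31.8 CPM).

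**Figure D5:**
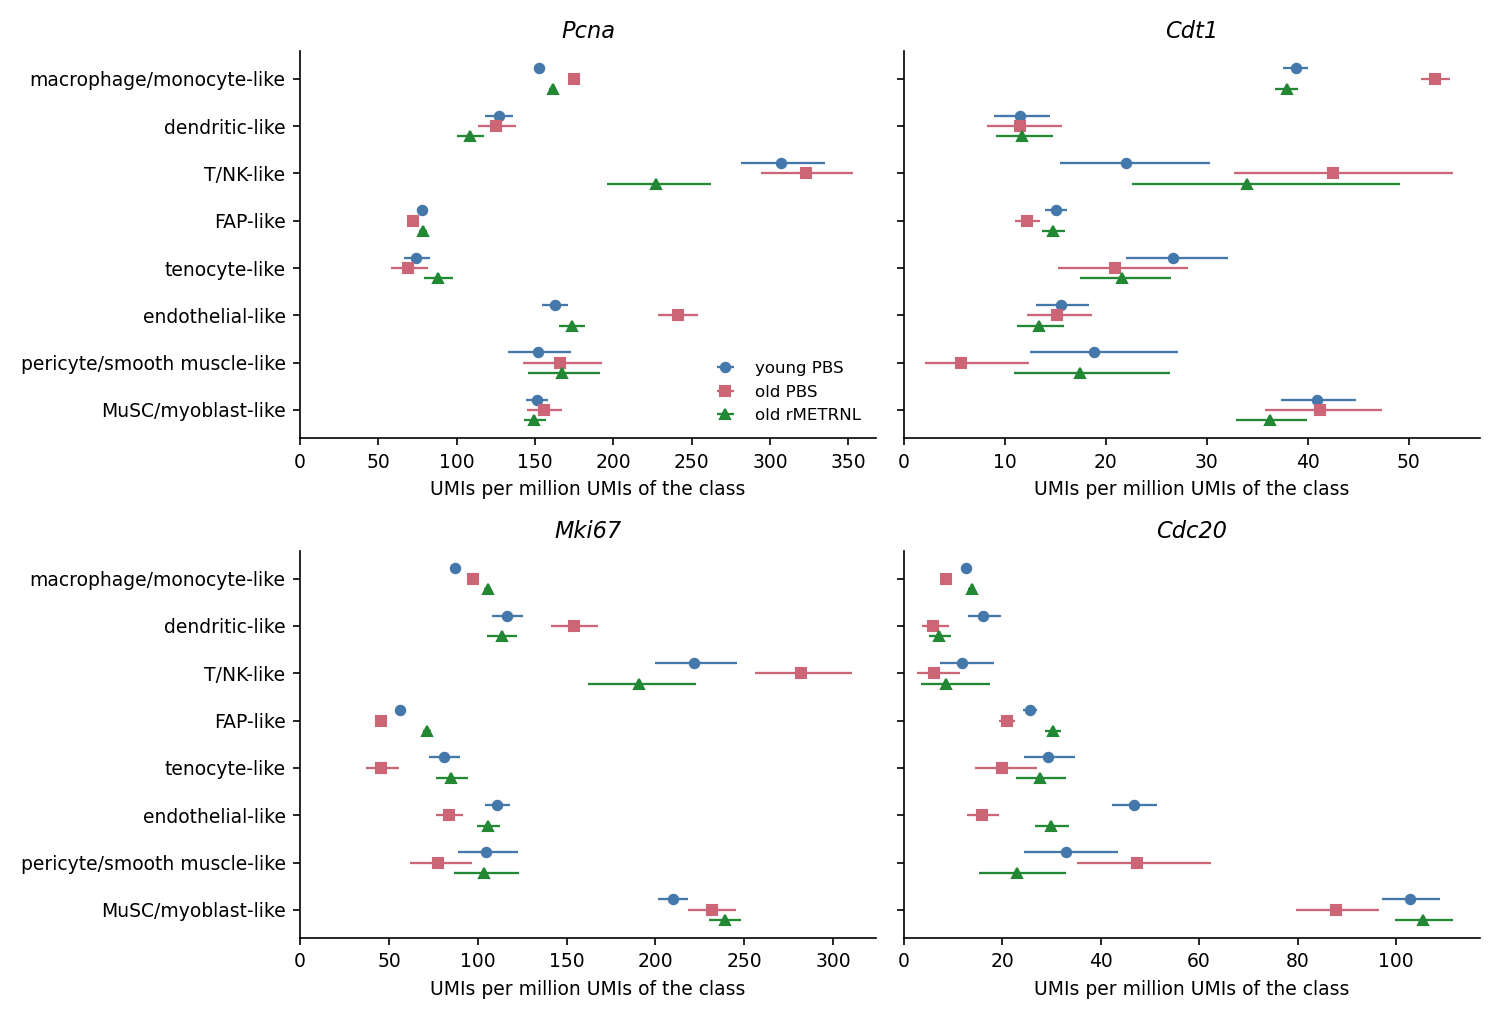
Level of 4 members by class in CPM, on linear axes that start at 0, for young PBS (circles), old PBS (squares) and old rMETRNL (triangles) with 95% Poisson intervals; the members were chosen after their values were seen. Pcna of endothelial-like cells, Cdt1 of macrophage/monocyte-like cells and Mki67 of dendritic-like cells peak in old PBS, at 241, 52.6 and 154 CPM, whereas Cdc20 of endothelial-like cells is lowest there, at 15.8 CPM.

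Across the 8 larger classes the members differed in how widely they were called. Mcm5 was called lower in old PBS than in young PBS in 6 classes and higher in none, as were Ube2c and Hmmr in 6 classes with T/NK-like cells called higher. Ube2c, Tpx2, Cenpf and Kif11 were each called higher in old rMETRNL than in old PBS in 6 classes, Kif11 being lower in 1. Mki67 was split, lower in old PBS in 3 classes and higher in dendritic-like and T/NK-like cells. Pcna was called lower in old PBS than in young PBS in 0 classes and higher in 1, endothelial-like cells, and Cdt1 was called higher in 2, macrophage/monocyte-like and T/NK-like cells, and lower in 1, pericyte/smooth muscle-like cells.

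Other genes of the cycle were counted by the same rule, in lists drawn up by role but with earlier results of these data known. Of 52 further mitosis genes, 45 were called lower in old PBS than in young PBS in endothelial-like cells and 0 higher, beside 17.1% of all genes called lower, with the lowest ratios in Depdc1a (0.194) and Cdc25c (0.247). In macrophage/monocyte-like cells 7 were called lower, near the 12.4% of all genes, and 0 higher. From old PBS to old rMETRNL 25 were called higher in endothelial-like and 39 in macrophage/monocyte-like cells, led there by Cdkn3 (1.72) and Cdca2 (1.62), with 0 lower in either, beside 13.4% and 12.7% of all genes called higher. Of 40 further replication genes, 23 were called higher than in old PBS in macrophage/monocyte-like cells of old rMETRNL and 0 lower, beside the same 12.7%. In T/NK-like cells 6 of 30 mitosis genes tested were called higher in old PBS than in young PBS and 10 lower in old rMETRNL than in old PBS, beside 9.64% and 5.49% of all genes.

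Among 11 genes of G1, the phase in which cells commit to divide, Ccnd1 and Ccnd3, D-type cyclins that answer growth signals, were called lower in old PBS than in young PBS in macrophage/monocyte-like cells, with ratios of 0.651 and 0.726. Ccnd1 and Ccnd2 were called higher in old rMETRNL than in old PBS, with ratios of 2.19 and 1.98. In MuSC/myoblast-like cells 2 of the 11 were called higher in old PBS than in young PBS and 0 lower, beside 9.06% and 6.37% of all genes. They were Myc, a growth regulator, with a ratio of 1.72, and Ccnd2, whose ratio of 2.39 rested on 27 UMIs in each of the PBS libraries. In old rMETRNL Ccnd1 was called higher (1.62) and Myc lower (0.629) than in old PBS, 1 gene each way, beside 6.07% and 7.73% of all genes. Of 15 genes that restrain the cycle, Cdkn1a, the p21 inhibitor of cyclin-dependent kinases, was called higher in old PBS than in young PBS in endothelial-like (2.18), pericyte/smooth muscle-like (2.31), tenocyte-like (1.58) and FAP-like cells (1.47). In MuSC/myoblast-like cells 2 of the 15 were called higher and 5 lower in old PBS than in young PBS, beside 9.06% and 6.37% of all genes. In old rMETRNL 3 were called higher and 1 lower than in old PBS, beside 6.07% and 7.73% of all genes. The inhibitor Cdkn2a was higher in old PBS (1.44) while Cdkn2b was lower (0.584) and then higher in old rMETRNL (1.54). Cdkn1c, the abundant p57 inhibitor of the same kinases, measured 413, 309 and 206 CPM, lowest in old rMETRNL at 0.667 times old PBS. In macrophage/monocyte-like cells Btg1 was higher in old PBS (1.31) and Btg2 lower (0.684).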

How the data were processed

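The authors deposited unnormalized UMI counts for every gene in every barcode, made from 10x Genomics libraries of dissociated injured muscle. The submitters' processing notes name Cell Ranger 5.0.0 and 3.1.0 and build mm10, while the methods of the study name another version of the same software. No replicates exist, and "young", "old" and the treatments are as the labels give them. The 45 members, the other gene lists and the markers were chosen with earlier results of these data known.

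Of 12168, 12568 and 14012 barcodes in young PBS, old PBS and old rMETRNL, with 218059089, 179295668 and 228966697 UMIs in all, those in which 500 genes or more were seen and mitochondrial UMIs stayed below 10% were used. Scrublet (scanpy 1.11.5) scored doublets. As 0 cells passed its own threshold, the highest scores were removed at 0.8% per 1000 barcodes (1110, 1112 and 1433 cells). Cells with cycle transcripts were called more often than others, at 13.6% against 8.13%, 13.2% against 7.90% and 12.7% against 8.44%. Whether dividing single cells were lost with the doublets was not tested.

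Counts were scaled to 10000 per cell and logged. Leiden clustering (resolution 0.8) used 2000 variable genes, 30 principal components and 20 neighbours, without 177 listed cycle genes and without 274 genes whose correlation with the members exceeded 0.25. The latter were left out after the data had been seen. Some sub-clusters still had cycle genes among their leading genes, such as Cdk1 in muscle cells and Knl1 and Kif11 in tenocyte-like cells. Lig1 and Cks1b led 1 of pericyte/smooth muscle-like cells. Sub-clusters of these classes thus differed in part by cycle genes. A class needed at least 3 markers. Sub-clusters with several listed markers of another class among their 10 leading genes, and more than of their own, stayed unnamed. With a cluster of 44 cells they made 195, 239 and 249 cells. Those with fewer such markers stayed in their class. Among them were tenocyte-like sub-clusters led in part by Lyz2 (121 cells) or C1qa (28), an endothelial-like one by C1qa (57) and a pericyte/smooth muscle-like one by Gpihbp1 (62).

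UMIs were summed per class and library. Levels have exact Poisson intervals, ratios the exact interval of a pair of counts given their sum, and shares Clopper-Pearson intervals, at 95%. A median log2 ratio had 0.5 added to each count. No test between groups was run, since each group had 1 library, and cells are not replicates. The call rule was also run on simulated counts that were independent by construction, which cannot speak to UMIs gathered in few cells. Named genes were 10 members fixed by name for macrophage/monocyte-like cells, the members with the highest and lowest ratios in each other class, members called against their list's median, and the 2 most extreme called genes of each other list. Others named in the text were chosen after their values were seen. Promoters came from RefSeq (GRCm38.p6), with motif searches on both strands of the 250 bases before the start. Alternatives covered filters, doublets, naming, clustering, thinning, minimum counts and scaling. Python 3.11.15, anndata 0.12.19, leidenalg 0.10.2, igraph 0.11.9, numpy 2.4.6, scipy 1.17.1, pandas 2.3.3 and matplotlib 3.10.9 were used.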

Additional observations from a re-analysis of the deposited data

How the results depend on the processing

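No paired analysis was possible because each group had 1 library, and for the same reason no replicate could be left out. Of the counts of calls and share ratios that answer a comparison, recomputed under 19 alternatives, 314 stayed within the spread allowed, 53 moved by more and 1 reversed. Of list medians and further counts of calls, 408 stayed, 79 moved and 1 reversed, a median. Members were not recomputed singly. Classes left with too few cells under a setting have no value there. Of the 19 alternatives, 3 were chosen after seeing the data. The causes of the changes below were not tested. In the small classes few cells carried most member UMIs, which limits their values.

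In macrophage/monocyte-like cells the ratio of thinned G2/M shares for old rMETRNL over old PBS, 1.21, became 1.02 with at least 1 UMI, 1.40 with at least 3, 1.36 at 1000 UMIs, 1.04 at 4000 and 0.995, a reversal, without thinning. For old PBS over young PBS, 0.913, within counting error of 1, became 1.02 with at least 1 UMI and 1.05 without thinning, on the other side of 1. The S-phase share ratio for old rMETRNL over old PBS became 1.22 with at least 3 UMIs, and that of MuSC/myoblast-like cells 1.47 at 1000 UMIs.

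Counts of calls moved as follows, in old PBS over young PBS unless the treated library is named. With cells named singly, lower calls in macrophage/monocyte-like cells were 1 for G2/M (from 9) and 0 for S-phase (from 1), and in MuSC/myoblast-like cells 1 (from 8) and 0 (from 4). T/NK-like cells had 5 higher G2/M calls (from 11), and for old rMETRNL over old PBS 3 lower G2/M (from 10) and 0 higher S-phase calls (from 2). Dendritic-like cells had 6 lower G2/M (from 10) and 7 lower S-phase calls (from 3), and for old rMETRNL over old PBS 8 higher G2/M (from 5) and 3 lower S-phase calls (from 1).

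The stricter cell filter gave lower calls of 5 (G2/M) and 0 (S-phase) in macrophage/monocyte-like, 13 and 1 in MuSC/myoblast-like, 20 and 11 in dendritic-like cells and 3 for S-phase in endothelial-like cells (from 5). For old rMETRNL over old PBS it gave 0 higher S-phase calls in MuSC/myoblast-like cells (from 5), and 17 higher G2/M and 0 lower S-phase calls in dendritic-like cells. With cycle genes in the clustering, lower calls in MuSC/myoblast-like cells were 0 for G2/M and 1 for S-phase, and for old rMETRNL over old PBS higher calls were 3 for S-phase there and 3 for G2/M in dendritic-like cells.

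With doublets kept, FAP-like cells had 13 lower G2/M calls (from 26), MuSC/myoblast-like cells 2 lower S-phase calls and, for old rMETRNL over old PBS, 3 higher ones, and T/NK-like cells 1 higher S-phase call. With a minimum of 200 UMIs, T/NK-like cells had 5 higher G2/M calls, and for old rMETRNL over old PBS 4 lower G2/M and 1 higher S-phase calls. Centring on the median of all genes gave 3 higher G2/M calls in dendritic-like cells for old rMETRNL over old PBS. Resolution 1.6 gave 5 lower S-phase calls in dendritic-like cells. Without the shallow endothelial sub-cluster 3 S-phase genes were lower in endothelial-like cells.

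With the mean of per-cell CPM, lower S-phase calls were 8 in MuSC/myoblast-like and endothelial-like, 5 in dendritic-like and 2 in macrophage/monocyte-like cells, and the S-phase median of tenocyte-like cells reversed from -0.44 to 0.035. For old rMETRNL over old PBS this mean gave 5 higher G2/M calls in MuSC/myoblast-like cells (from 14), 8 higher S-phase calls in endothelial-like cells (from 4), 5 lower G2/M and 4 higher S-phase calls in T/NK-like cells, and 10 higher G2/M and 2 lower S-phase calls in dendritic-like cells.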
